A study of Homo sapiens with 4 samples.

Results

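These 4 hashtag samples of OVCAR5, an established ovarian carcinoma cell line, had the lowest interferon response among 24 samples of 1 hashed single-cell RNA-seq pool. They are named here by their pairs of antibody-borne oligonucleotide tags: HTO1/HTO10, HTO7/HTO10, HTO4/HTO8 and HTO2/HTO9. They held 218, 203, 165 and 244 cells, 830 of the 5298 cells that could be given to a hashtag sample. A cell was kept with at least 1000 genes detected and at most 20% of its counts in mitochondrial genes, and it was given to a tag pair when both tags had at least 3 times the count of the next tag. The 4 pairs were picked from measured values, and the order in which they are set side by side was given with that choice and follows no label.

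The study asks how OVCAR5 cells respond to the conditioned medium (supernatant, SN) of tumor cells grown together with T cells. Per the labels, 24 cultures combined 6 exposures (Unstimulated in vitro, SN, 1/5 SN, 1/25 SN, 1/125 SN and 1/625 SN) with 4 durations (2, 6, 12 and 24 h). All cultures were grown in IMDM with fetal calf serum, were tagged, and were pooled before the cells were captured for 3′ sequencing. No source used here says which tag pair marks which culture, so none of the 4 samples has an exposure or a duration, and none is called untreated. Each condition was listed once, so each sample is 1 culture of 1 cell line with no replicate. No test between samples was possible, and the 95% intervals below cover counting error only.

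Interferon gamma, a cytokine released by activated T cells, raises transcription of chemokines, guanylate-binding proteins and antigen presentation genes. In carcinoma cells, growth and spreading on plastic are accompanied by other programs. YAP and TAZ, with their DNA-binding TEAD partners, drive genes such as CCN1, CCN2 and ANKRD1 when cells are spread and actin is under tension. Ligands of the EGF receptor are shed from the cell surface, keratins form the filaments of epithelial cells, and fatty acid binding proteins carry lipids inside the cell.

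The values that set the 4 samples apart were as follows, and they are given as a description because the choice rests on them. Level here means CPM, the number of UMIs of a gene (unique molecular identifiers, 1 per RNA molecule captured) per 1000000 UMIs in the summed cells of a sample. In the order HTO1/HTO10, HTO7/HTO10, HTO4/HTO8 and HTO2/HTO9, which holds for all values below, the summed level of 24 interferon gamma target genes was 853, 782, 783 and 893 CPM. The nearest sample outside the 4, HTO6/HTO10, had 2298 CPM, and the other 20 samples reached up to 21817 CPM. MHC class II genes summed to 30.7, 26.4, 16.8 and 16.8 CPM, against 35.7 to 2175 CPM in the other 20. The antiviral interferon target list did not part the samples as fully. HTO2/HTO9, with 1792 CPM, was the fifth lowest of the 24, just above a sample with 1784 CPM.

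In depth the 4 samples lay within or just above the range of the others. They held between 2381151 and 3266052 UMIs, so that 3 counts in a sample equalled 0.919 to 1.26 CPM. Median UMIs per cell were 13104 to 14795, against 9389 to 14471 in the other samples, with HTO1/HTO10 above all of them. Median mitochondrial shares were 8.67% to 10.1%, against 9.51% to 13.8%, with HTO7/HTO10 below all of the others. Markers fitted the label of an epithelial tumor line in part. Of 10 epithelial markers, 9 had at least 1 UMI in the 4 samples and MUC16, the CA-125 antigen, had none. Their summed level was 3408, 3565, 3657 and 3651 CPM, and most of it came from keratin genes. CDH1, which encodes E-cadherin, had 4, 7, 1 and 5 UMIs in all, of which 4, 5, 0 and 5 lay in the few cells with at least 10 KRT81 UMIs per 10000. Other lineages were close to absent. T-cell markers had UMIs for 2 of 11 genes, with a summed level of 0 to 5.21 CPM and with CD3D, CD3E, CD3G, CD2, CD4, PTPRC and TRAC at 0. Fibroblast markers had UMIs for 2 of 6 genes (0 to 1.68 CPM), endothelial markers for 1 of 6 (0 to 0.306 CPM) and macrophage markers for 3 of 6 (23.5 to 29.4 CPM), with CSF1R, C1QA and MRC1 at 0.

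Across the 4 samples, 65 of 5823 genes differed by 2-fold or more between their highest and lowest sample (1.12%), and 9 differed by 4-fold or more (0.155%). The comparison used log2(CPM + 10) and took in genes whose mean over the 4 was 20 CPM or more, a scale that understates the change of low genes. The median gene had a range of 0.29 on that log2 scale. Neighbouring samples were closer than the ends. Between HTO1/HTO10 and HTO7/HTO10, 3 genes were higher and 3 lower in the second (0.0515% each, 0.103% in all). From HTO7/HTO10 to HTO4/HTO8, 6 were higher (0.103%) and 13 lower (0.223%), 0.326% in all, and from HTO4/HTO8 to HTO2/HTO9, 7 were higher (0.12%) and 0 lower (0%). Between HTO1/HTO10 and HTO2/HTO9, 13 genes were higher in HTO2/HTO9 (0.223%) and 33 were lower (0.567%), together 0.79%. Of the 65 genes, 39 had their highest level in HTO1/HTO10 and 29 their lowest in HTO2/HTO9. A gene could also be lower at each of the 3 steps, as 565 genes were (9.7%), or higher at each, as 418 were (7.18%). Together with a 2-fold difference between the ends, 28 genes were lower throughout (0.481%) and 7 higher throughout (0.12%). These shares of all 5823 genes are the scale for every count of list members below.

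**Figure D1:**
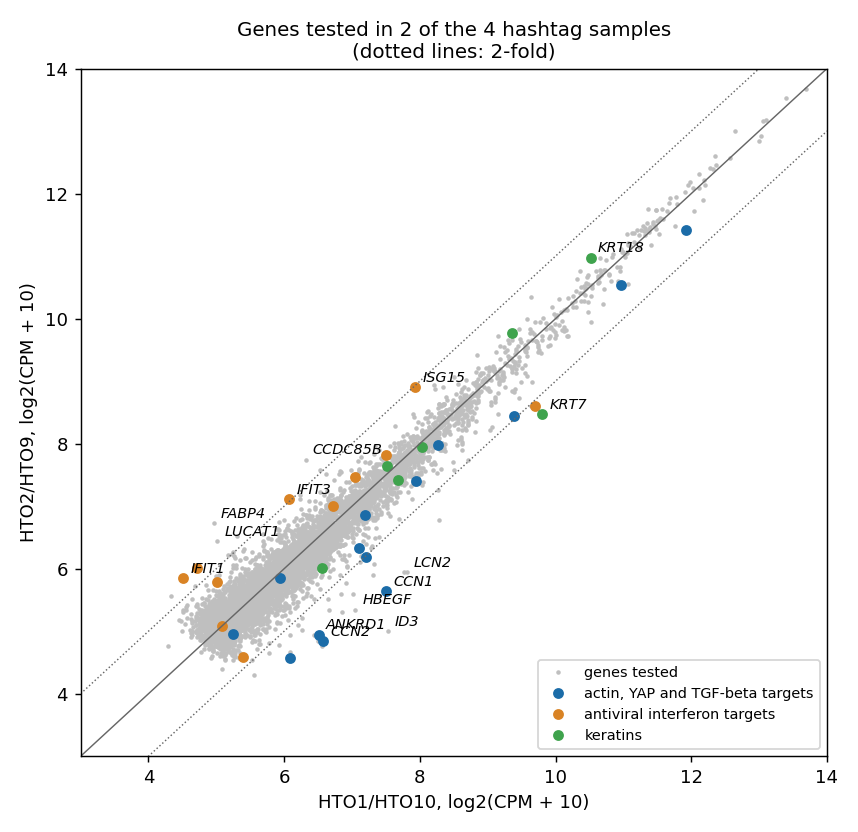
Level of each of 5823 genes in HTO1/HTO10 (horizontal axis) and HTO2/HTO9 (vertical axis), both as log2(CPM + 10), with 3 gene lists in colour and dotted lines at 2-fold. Below the lower line lie 33 genes, among them ID3, CCN1, CCN2, ANKRD1, HBEGF and KRT7, and above the upper line lie 13, among them FABP4, CCDC85B, LUCAT1 and IFIT3.

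Genes driven by YAP, actin tension and TGF-beta made the clearest group that was lower toward HTO2/HTO9. The list of 21 genes summed to 7973, 7415, 6669.9 and 5362 CPM, a ratio of 1.49 (1.46 to 1.52) between the ends, while the other 20 samples ran from 4759 to 7673 CPM. Of its 14 tested members, 6 differed by 2-fold or more over the 4 samples (1.12% over all 5823 genes). In HTO2/HTO9, 5 were at least 2-fold lower than in HTO1/HTO10 (0.567% over all) and none was higher (0.223%). Lower at each step were 9 members (9.7% over all), and none was higher at each step (7.18%). The list's median difference between the ends was -0.66 on the log2 scale, beside -0.03 over all 5823 genes.

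CCN1 (ENSG00000142871, chromosome 1, 85580761 to 85583962), a matricellular protein and classical YAP target, had 171, 108, 58.8 and 39.8 CPM. HTO1/HTO10 was above HTO2/HTO9 by a ratio of 4.29 (3.54 to 5.23), and each sample lay below the one before. CCN2 (ENSG00000118523, chromosome 6, 131948176 to 131951373), the related connective tissue growth factor, followed the same order with 84.9, 53.5, 26.5 and 18.7 CPM, a ratio of 4.55 (3.43 to 6.10). The intervals of HTO4/HTO8 and HTO2/HTO9 overlapped, and in HTO4/HTO8 5 cells held 54.0% of the CCN2 UMIs. Without the 5 cells richest in CCN2 in each sample, the levels were 72.9, 42.8, 12.75 and 12.83 CPM. HTO4/HTO8 and HTO2/HTO9 were then alike. ANKRD1, a nuclear ankyrin-repeat protein, had 81.2, 73.3, 34.02 and 20.8 CPM, and AMOTL2, an angiomotin that binds YAP, had 58.2, 31.95, 19.7 and 13.8 CPM. Both were highest in HTO1/HTO10 and lowest in HTO2/HTO9, with ratios of 3.90 (2.98 to 5.17) and 4.23 (3.04 to 5.99).

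THBS1 (ENSG00000137801, chromosome 15, 39581079 to 39599466), which encodes thrombospondin-1, a matrix protein that activates TGF-beta, kept another order. Its level was 128, 168, 78.95 and 70.7 CPM, highest in HTO7/HTO10 and lowest in HTO2/HTO9, with a ratio of 2.38 (2.03 to 2.79). The other 20 samples ran from 9.55 to 128 CPM with a median of 54.1 CPM, so that all 4 were above that median. THBS1, FABP4 and AREG came as markers with the choice of the 4 samples. Their levels beside the other 20 are therefore given as a description. The structural members of the list moved less. TPM1, a tropomyosin of actin filaments, had 658, 609, 473 and 338 CPM and ACTB, beta-actin, 3883, 3503, 3172 and 2738 CPM, each lower at every step, and reads of ACTB could be divided with near-identical actin copies. AXL, a receptor kinase, stayed within 241 to 297 CPM.

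The promoters of CCN2 and THBS1 are shown because both genes were lowest in HTO2/HTO9 and both carry the core TEAD-binding letters in front of the gene. The stretch runs 5′ to 3′ on the gene's strand and ends at or just before the gene start of RefSeq (GRCh38.p14). Capitals mark matches to GGAATG or, on the other strand, CATTCC:
CCN2, chr6:131951374-131951622, minus strand: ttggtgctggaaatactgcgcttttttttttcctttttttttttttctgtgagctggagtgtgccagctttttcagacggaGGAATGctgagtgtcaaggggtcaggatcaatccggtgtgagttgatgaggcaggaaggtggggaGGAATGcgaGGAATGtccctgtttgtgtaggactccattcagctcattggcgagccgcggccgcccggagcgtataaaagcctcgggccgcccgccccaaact
THBS1, chr15:39580829-39581078, plus strand: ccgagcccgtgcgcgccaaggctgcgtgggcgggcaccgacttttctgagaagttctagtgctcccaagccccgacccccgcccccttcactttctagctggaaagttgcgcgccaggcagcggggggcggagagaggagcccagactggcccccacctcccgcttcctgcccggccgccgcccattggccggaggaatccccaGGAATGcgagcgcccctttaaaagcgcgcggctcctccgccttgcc
The CCN2 matches begin 169, 104 and 95 bases before the start and the THBS1 match 46 bases before it. Of 27305 RefSeq promoters, 11.9% held such a match within the 250 bases before the start, and of the 11 tested members of the list with an entry, 4 did. Over all tested genes, 447 of 4757 with an entry did. The letters were not limited to genes that were lower in HTO2/HTO9. Of 7 tested antiviral interferon targets with an entry, 2 held a match. The IFIT1 and IFIT3 stretches printed further below contain it in small letters, and both genes were highest in HTO2/HTO9. Among the 28 genes that were lower at each step and 2-fold lower at the end, 19 had an entry and 5 held a match. A match is a stretch of letters and no evidence of binding in these cells.

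Outside the list, ID3 had the widest ordered difference. ID3 (ENSG00000117318, chromosome 1, 23557918 to 23559794), an inhibitor of helix-loop-helix factors and a target of BMP and TGF-beta signaling, had 174, 94.8, 38.2 and 22.04 CPM. The ratio between the ends was 7.90 (6.17 to 10.2), and the intervals of neighbouring samples did not overlap. The share of cells with an ID3 UMI was 83.9, 63.1, 30.9 and 22.5%, and 39.8, 22.3, 12.2 and 4.51% after each cell was thinned to 3000 UMIs, so the order was the same at equal depth. Among the 10 largest ordered declines were also LCN2, CCN1, SAA1, CCN2, HBEGF, ANKRD1, AL713998.1 and AMOTL2. AL713998.1, a gene named only by its clone, had 106, 51.4, 44.5 and 29.7 CPM.

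**Figure D2:**
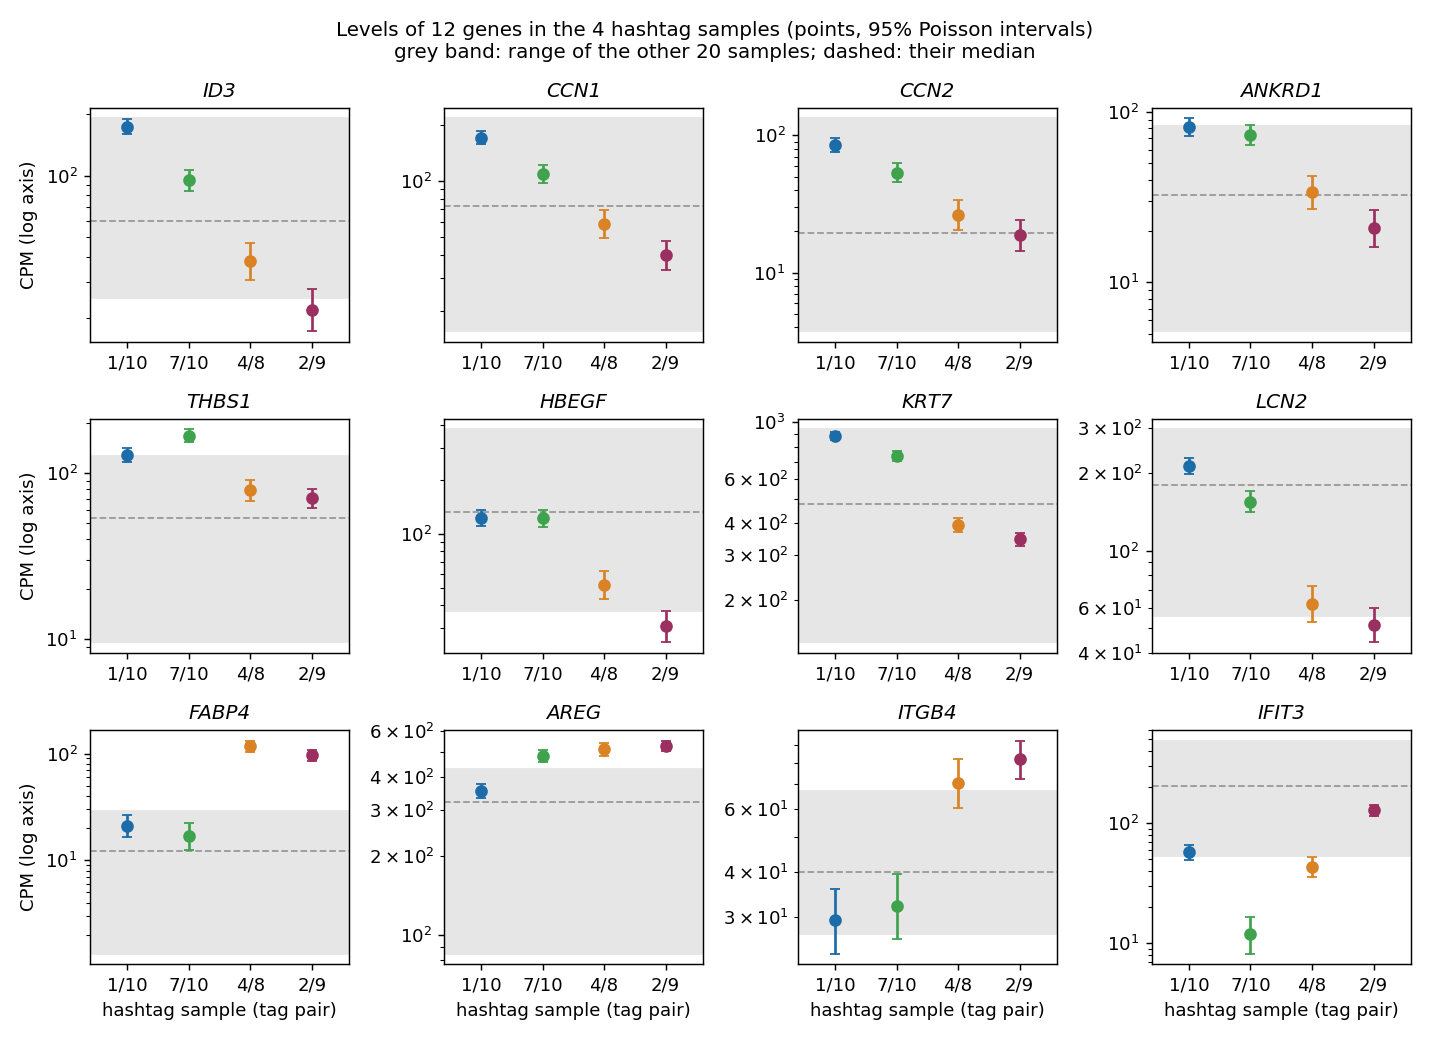
Levels of 12 genes in CPM on a log axis in the 4 hashtag samples (points with 95% Poisson intervals), with the range of the other 20 samples as a grey band and their median dashed. ID3, CCN1, CCN2, ANKRD1 and KRT7 stepped down from HTO1/HTO10 to HTO2/HTO9, FABP4 stood above the band in HTO4/HTO8 and HTO2/HTO9, and IFIT3 was lowest in HTO7/HTO10.

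Growth factors of the EGF receptor family went in opposite directions. AREG (ENSG00000109321, chromosome 4, 74445134 to 74455009), which encodes amphiregulin, had 354, 482, 511 and 526 CPM. HTO1/HTO10 was the lowest and the other 3 were close together, with a ratio of 1.49 (1.38 to 1.60) between the ends. The 3 higher samples were all above the range of the other 20, 84.8 to 428 CPM, a description because AREG came as a marker with the choice. EREG, epiregulin, had 188, 222, 289 and 302 CPM, again lowest in HTO1/HTO10, with a ratio of 1.61 (1.45 to 1.78). HBEGF (ENSG00000113070, chromosome 5, 140332843 to 140346631), the heparin-binding ligand, had 122, 122, 52.1 and 30.6 CPM. It was alike in the 2 samples with HTO10 and lower in the other pair, with a ratio of 3.98 (3.19 to 5.01), and HTO2/HTO9 was below the range of the other 20 (37 to 379.8 CPM).

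The receptor gene EGFR had 285, 268, 299 and 252 CPM and ERRFI1, a feedback inhibitor of the receptor, 123, 115, 130.2 and 112 CPM. Both differed little and ranked the 4 samples alike, highest in HTO4/HTO8 and lowest in HTO2/HTO9. Of the 5 tested members of the list, 1 passed 2-fold, HBEGF. AREG UMIs were spread over the cells. The share of cells with at least 1 was 84.9, 89.7, 91.5 and 90.98%, and the 5 cells with the most AREG UMIs held 11.2, 16.6, 12.9 and 10.9% of them. Among other growth factors, 1 of 4 tested genes passed 2-fold. ANGPTL4, a secreted inhibitor of lipoprotein lipase, had 18.7, 49.3, 36.5 and 43.2 CPM, lowest in HTO1/HTO10. IGFBP4, MDK and IGFBP6, which bind insulin-like growth factors or, for MDK, act as a heparin-binding cytokine, ranged by less than 2-fold. Targets of the receptor's downstream kinases were split as well. DUSP5, an ERK phosphatase, had 50.9, 44.5, 36.1 and 17.5 CPM and was lower at each step, while ETV5, an ETS factor, had 29.1, 32.3, 49.1 and 54.2 CPM and was higher at each step. DUSP5 alone passed 2-fold among 18 immediate early and feedback genes.

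Lipid genes were led by FABP4. FABP4 (ENSG00000170323, chromosome 8, 81478419 to 81483263), the fatty acid binding protein known from adipocytes and macrophages, had 21.1, 17.02, 118 and 96.1 CPM. HTO4/HTO8 and HTO2/HTO9 were several times above the other pair, and the ratio of the highest to the lowest sample was 6.93 (5.10 to 9.60). The other 20 samples ran from 1.33 to 28.7 CPM with a median of 12.2 CPM. HTO1/HTO10 and HTO7/HTO10 lay inside that range and HTO4/HTO8 and HTO2/HTO9 outside it. FABP4 came as a marker with the choice, so this too is a description.

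FABP4 was carried by a minority of cells. At least 1 UMI was found in 15.1, 7.88, 26.7 and 20.5% of cells, and in 6.48, 2.48, 17.7 and 12.3% after thinning. Cells with 5 or more FABP4 UMIs numbered 2 of 218, 3 of 203, 22 of 165 and 18 of 244. The pairs therefore differed most in cells with several molecules. A single cell of HTO2/HTO9 held 85 UMIs and the highest of HTO4/HTO8 held 32. Without the 5 cells richest in FABP4 in each sample, the levels were 13.2, 5.35, 76.4 and 51.8 CPM, in which HTO4/HTO8 and HTO2/HTO9 were still the highest. The 9 cells of HTO2/HTO9 with at least 10 KRT81 UMIs per 10000 held no FABP4 UMI among 133381 UMIs, and its remaining cells had 100.2 CPM. Of all 244 cells of this sample, 194 held no FABP4 UMI. So few cells without any therefore cannot show a lower level in the 9 cells. The part of free RNA in the shares was not tested. Adipocyte markers did not accompany FABP4. Of 5 such markers, 4 had a UMI, their summed level was 1.23 to 2.14 CPM, and ADIPOQ, the adipocyte hormone, was at 0.

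Most other genes of the fatty acid handling list differed little. Of 15 tested genes of fatty acid handling, 2 passed 2-fold, FABP4 and G0S2, and the list's median difference between the ends was 0.03 on the log2 scale. G0S2, an inhibitor of the lipase ATGL, had 119.8, 109, 44.5 and 38.6 CPM, a ratio of 3.11 (2.54 to 3.83) in the direction opposite to FABP4. FABP5, the epidermal relative of FABP4, was far more abundant at 957, 913, 743 and 750.4 CPM and slightly lower in HTO4/HTO8 and HTO2/HTO9. PPARG, the nuclear receptor that drives FABP4 in fat cells, had 55.5, 52.4, 56.7 and 68.6 CPM, each above the range of the other 20 samples (24.3 to 52 CPM). CPT1A, which brings fatty acids into mitochondria, had 22.4, 24.3, 34.02 and 37.4 CPM, and ACSL4, an acyl-CoA synthetase, 49.7, 34.4, 28.98 and 25.1 CPM. CPT1A was higher and ACSL4 lower at each step. ACAA2, a thiolase of mitochondrial beta-oxidation, and ALDH3A2, a fatty aldehyde dehydrogenase, were among the 10 largest ordered increases, with 15.6, 30.2, 39.1 and 42.6 CPM and 21.8, 29.9, 44.9 and 48.99 CPM. None of 10 tested cholesterol genes passed 2-fold, and the list summed to 669, 610.2, 591 and 604 CPM.

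**Figure D3:**
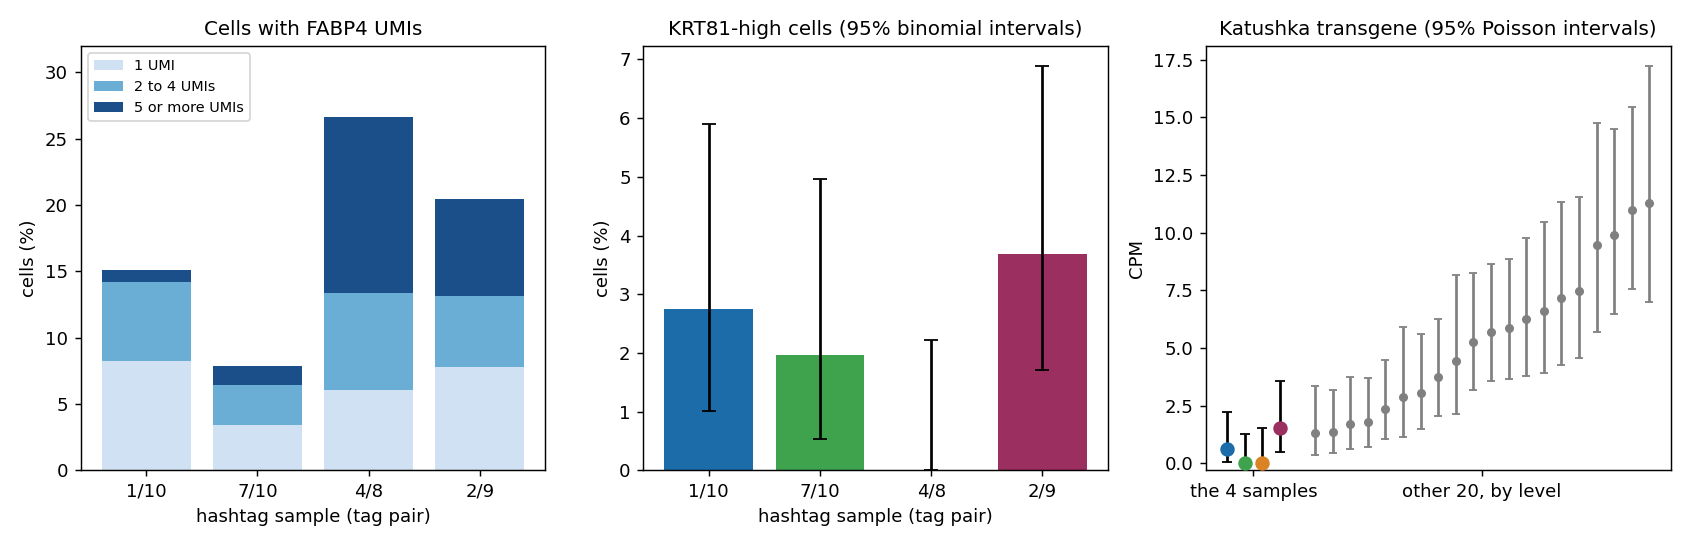
Left: percent of cells with 1, 2 to 4 or 5 or more FABP4 UMIs in each of the 4 hashtag samples. Middle: percent of KRT81-high cells with 95% binomial intervals. Right: CPM of the Katushka transgene in the 4 samples and in the other 20 with 95% Poisson intervals. Cells with 5 or more FABP4 UMIs were 13.3% in HTO4/HTO8 and 0.917% in HTO1/HTO10, KRT81-high cells were absent from HTO4/HTO8, and the 2 lowest Katushka values were 0.

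Keratins did not move together. KRT7 (ENSG00000135480, chromosome 12, 52232520 to 52252186), a keratin of simple and ductal epithelia, had 884, 736, 395 and 346 CPM, lower at each step, with a ratio of 2.56 (2.39 to 2.74). KRT18 and KRT8, which pair in the filaments of simple epithelia, had 1457, 1732, 1934 and 2001 CPM and 645, 690.1, 874 and 862 CPM. Both were higher in HTO4/HTO8 and HTO2/HTO9 than in HTO1/HTO10, with ratios of 1.37 (1.32 to 1.43) and 1.36 (1.27 to 1.44). The 2 genes overlap on opposite strands, and whether counting used strand is not given in the sources used here. KRT19 stayed within 236 to 273 CPM, and KRT20, an intestinal-type keratin, had 84.3, 75.7, 71.8 and 54.5 CPM. The keratin list as a whole summed to 3717, 3817, 3744 and 3870.1 CPM, so the opposite changes nearly cancelled in the sum. Of 7 tested keratins, 2 passed 2-fold, KRT81 and KRT7. Junction genes and VIM, vimentin, were steady, with none of 8 tested genes past 2-fold and VIM at 2074, 2114, 1990.2 and 2013 CPM.

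KRT81 (ENSG00000205426, chromosome 12, 52285913 to 52291534), a hair-type keratin, had the widest range of all genes tested, 196, 142, 4.62 and 160.4 CPM, a ratio of 42.3 (23.5 to 85.2). Its UMIs sat in few cells, and reads of KRT81 could be divided with near-identical hair keratins. Cells with at least 10 KRT81 UMIs per 10000, called KRT81-high here, numbered 6 of 218 (2.75%), 4 of 203 (1.97%), 0 of 165, with an upper limit of 2.21% by the exact binomial interval and 1.82% by 3 counts, and 9 of 244 (3.69%). All of the other 20 samples held such cells, at 0.407% to 4.12%. The remaining cells, which this split limits to low KRT81, had 5.09, 8.20, 4.62 and 5.75 CPM.

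Several genes with wide ranges took most of their UMIs from the KRT81-high cells. S100A9, a calcium-binding protein of myeloid and stressed epithelial cells, had 28.8, 30.2, 0.420 and 61.8 CPM, the third value resting on 1 UMI. In the KRT81-high cells of the other 3 samples it stood at 674, 835 and 1484 CPM, and in the remaining cells of the 4 samples at 4.77, 9.27, 0.420 and 1.28 CPM. LDHB, the heart-type lactate dehydrogenase subunit, had 28.5, 16.3, 0.420 and 43.2 CPM over all cells and 0.954, 0.356, 0.420 and 0.319 CPM in the remaining cells. CXCL8, the neutrophil chemokine interleukin-8, had 80.3, 27.8, 7.14 and 18.7 CPM over all cells and 18.1, 7.48, 7.14 and 4.15 CPM in the remaining cells. The low levels of these genes in HTO4/HTO8 went with the lack of KRT81-high cells there. Without KRT81-high cells, the genes past 2-fold between HTO7/HTO10 and HTO4/HTO8 numbered 12 in place of 19, and those between HTO4/HTO8 and HTO2/HTO9 numbered 3 in place of 7, whereas the count over all 4 samples was 67. EPCAM, an epithelial adhesion molecule, had 427, 438 and 307 CPM in the KRT81-high cells of the 3 samples and 37.8, 33.1, 46.2 and 47.9 CPM in the remaining cells of the 4. FABP4 had no UMI in any of the 19 KRT81-high cells. Median UMIs per cell were 20803, 18130 and 15864 in the KRT81-high cells of the 3 samples and 14714.5, 13205 and 13070 in their remaining cells. VIM had 162, 164 and 105 CPM in the KRT81-high cells of the 3 samples and 2145, 2165 and 2095 CPM in their remaining cells. FTL, the ferritin light chain, had 1639, 1684 and 1350 CPM against 9076, 8782 and 9600 CPM. ACTB differed less, with 4047, 3848 and 2699 CPM against 3877, 3494 and 2739 CPM. Doublets within a sample were not removed, and their part in these cells was not tested.

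LCN2 and SAA1, both known as acute-phase genes, were among the large ordered declines, and no list of such genes was examined. LCN2 (ENSG00000148346, chromosome 9, 128149071 to 128153455), lipocalin-2, an iron-siderophore binding protein of innate defense, had 213, 155, 62.2 and 51.4 CPM, a ratio of 4.15 (3.50 to 4.94). SAA1 (ENSG00000173432, chromosome 11, 18266174 to 18269977), serum amyloid A1, had 208, 164, 58.4 and 51.4 CPM, a ratio of 4.04 (3.41 to 4.81), and its reads could be divided with SAA2. In HTO1/HTO10, the 5 richest cells held 31.0% of the LCN2 UMIs and 35.4% of the SAA1 UMIs. Without the 5 richest cells in each sample, LCN2 had 152, 129, 51.3 and 44.7 CPM. SAA1 then had 139, 105, 44.0 and 37.3 CPM, and both kept their order. The other 20 samples ran from 164 to 1481 CPM for SAA1 over all cells, so that HTO4/HTO8 and HTO2/HTO9 lay below all of them. The NF-kappaB target list summed to 494, 338, 307 and 338 CPM, highest in HTO1/HTO10, and 2 of its 8 tested members passed 2-fold. One was CXCL8 and the other IL32, a pro-inflammatory cytokine, with 36.8, 22.6, 12.2 and 9.80 CPM. TNFAIP2, another member, had 30.7, 35.8, 43.7 and 60.3 CPM and was higher at each step.

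The residual interferon signal differed among the 4 samples by gene rather than as a whole. Of 11 tested antiviral targets, 6 passed 2-fold over the 4 samples, beside 1.12% of all 5823 genes. In HTO2/HTO9, 3 were at least 2-fold higher than in HTO1/HTO10 (0.223% over all) and 1 at least 2-fold lower (0.567%). These genes are part of the interferon response on which the 4 samples were chosen, but the differences among the 4 are a separate comparison. IFIT3 (ENSG00000119917, chromosome 10, 89327894 to 89340971), an antiviral tetratricopeptide protein, had 57.3, 11.8, 43.3 and 128 CPM. HTO7/HTO10 was the lowest and HTO2/HTO9 the highest, with a ratio of 10.8 (7.63 to 15.9). IFIT1, which binds viral RNA caps, had 12.9, 3.47, 18.5 and 47.8 CPM, and IFIT2, another family member, 16.2, 5.90, 19.3 and 54.5 CPM. Their order was that of IFIT3 at both ends, with ratios of 13.8 (7.28 to 29.2) and 9.23 (5.60 to 16.2). ISG15, a ubiquitin-like modifier, had 235, 209, 293 and 470.0 CPM and OASL, an oligoadenylate synthetase-like protein, 22.1, 12.5, 21 and 45.3 CPM, both again lowest in HTO7/HTO10 and highest in HTO2/HTO9.

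The IFIT genes came from few cells. An IFIT3 UMI was found in 16.5, 7.88, 17.6 and 20.1% of cells, and the 5 richest cells held 59.4, 67.6, 73.8 and 49.04% of its UMIs. Without those 5 cells in each sample the levels were 23.9, 3.95, 11.8 and 66.8 CPM, and HTO2/HTO9 was still the highest. ISG15 was wider spread, with a UMI in 81.7, 77.8, 90.3 and 92.6% of cells. The variance of IFIT3 over cells was 26.5 times the Poisson value in HTO2/HTO9 and 23.8 times in HTO4/HTO8.

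The promoters of IFIT1 and IFIT3 are shown because both genes had the same lowest and highest sample and both carry the interferon-stimulated response element. The stretch begins 250 bases before the RefSeq start (GRCh38.p14) and stops before the first exon of GENCODE 29. Capitals mark matches to GAAA, any 2 bases and GAAA or, on the other strand, TTTC, any 2 bases and TTTC:
IFIT1, chr10:89392373-89392545, plus strand: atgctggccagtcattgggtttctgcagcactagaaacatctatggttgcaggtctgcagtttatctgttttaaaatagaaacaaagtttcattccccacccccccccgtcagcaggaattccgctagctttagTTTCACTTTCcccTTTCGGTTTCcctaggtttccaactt
IFIT3, chr10:89327747-89327893, plus strand: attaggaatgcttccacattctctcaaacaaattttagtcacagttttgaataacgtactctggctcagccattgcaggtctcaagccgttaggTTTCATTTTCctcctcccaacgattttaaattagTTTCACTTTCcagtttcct
The IFIT1 matches begin 116 and 103 bases before the RefSeq start and do not overlap, and the IFIT3 matches begin 156 and 122 bases before it. The element was found in 3.07% of 27305 promoters. All 7 tested antiviral genes with an entry held it, among them genes that did not follow the order of the IFIT genes.

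Some other members of the interferon lists went the other way. IFI27, a mitochondrial interferon-inducible protein, had 821, 748, 447 and 377 CPM, lower at each step, with a ratio of 2.18 (2.04 to 2.33), and IFI6, another small inducible protein, had 32.2, 27.4, 15.96 and 14.1 CPM. IFITM3, which blocks virus entry, did not, and was slightly higher at each step with 171, 195, 207 and 215 CPM. Among 12 tested interferon gamma targets, 2 passed 2-fold. CXCL10, a chemokine for T cells, had 57.9, 31.3, 15.5 and 20.5 CPM, and without the 5 cells richest in it 17.5, 16.2, 12.2 and 16.9 CPM. APOL6, an apolipoprotein L family member, had 65.6, 57.3, 76.01 and 135 CPM, highest in HTO2/HTO9. IRF1, a transcription factor of the pathway, had 89.2, 60.1, 70.1 and 85.1 CPM. MHC class I genes were slightly lower toward HTO2/HTO9. The list summed to 3544, 3378, 2935 and 2842 CPM, none of 9 tested members passed 2-fold, 4 were lower at each step, and the median difference between the ends was -0.40. B2M, the shared light chain, had 1931, 1784, 1594 and 1545 CPM.

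Stress genes split into groups. Chaperones of the endoplasmic reticulum were higher in HTO4/HTO8 and HTO2/HTO9 than in the other pair, with a sum of 2834, 2860.2, 3763 and 3588 CPM and a ratio of 1.33 (1.29 to 1.37) between highest and lowest. None of 15 tested members passed 2-fold, and the median difference between the ends was 0.20. HSP90B1, the chaperone GRP94, had 287, 311, 524 and 479 CPM, CALR, the lectin chaperone calreticulin, 449, 476, 718 and 671 CPM and HSPA5, the chaperone BiP, 229.6, 233, 366 and 347 CPM. In each of these 3 genes HTO4/HTO8 was the highest sample and HTO1/HTO10 the lowest.

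Heat shock genes did not follow that pattern. The list summed to 15606, 17053, 15929 and 14419 CPM, highest in HTO7/HTO10. The inducible HSPA1A had 44.8, 99.7, 113 and 63.99 CPM and its near-identical copy HSPA1B 9.50, 35.4, 21.8 and 17.1 CPM, the 2 of 13 tested members that passed 2-fold, both lowest in HTO1/HTO10. Reads could be divided between these copies. HSPA8, the constitutive relative, had 1409.7, 1803, 1691 and 1097 CPM. Amino acid and integrated stress genes were lower toward HTO2/HTO9, with a sum of 1376, 1273, 1131 and 1085 CPM, but 1 of 16 tested members passed 2-fold. That member was PPP1R15A, the phosphatase subunit GADD34, with 104, 68.1, 39.5 and 38.6 CPM, while STC2, a secreted stress hormone, had 76.9, 64.6, 34.9 and 35.5 CPM. ATF4, the factor that drives the program, had 82.8, 67.03, 57.96 and 63.1 CPM and differed less.

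The oxidative stress list summed to 20969, 20464, 23830.5 and 23583 CPM, of which the ferritin genes FTH1 and FTL made up 15210, 14534, 17736 and 17462 CPM. The rest of the list came to 5759, 5930, 6095 and 6121 CPM, so that most of the difference in the sum lay in these 2 genes. None of 16 tested members passed 2-fold, 1 was higher at each step, and the median difference between the ends was 0.15 on the log2 scale. FTH1, the ferritin heavy chain, had 6402, 5932, 7517 and 8199 CPM and SQSTM1, the autophagy receptor p62, 562, 514, 773 and 833 CPM. Both were lowest in HTO7/HTO10 and highest in HTO2/HTO9. Hypoxia and glycolysis genes summed to 7536, 7415, 7916 and 7655 CPM with none of 13 tested past 2-fold.

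**Figure D4:**
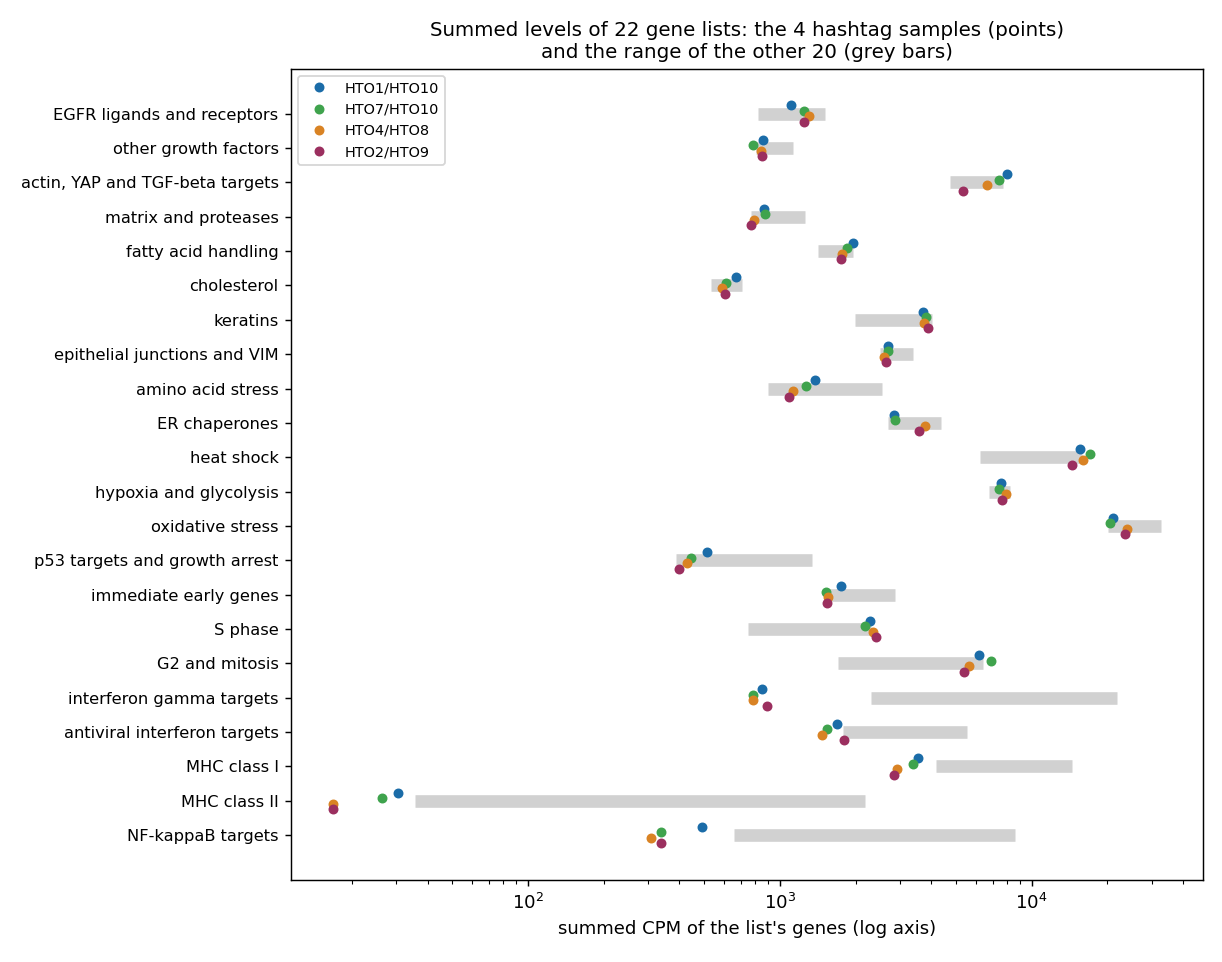
Summed CPM of 22 gene lists on a log axis in the 4 hashtag samples (coloured points) and the range of the other 20 (grey bars). The 4 samples lay below the grey bar for NF-kappaB targets and for interferon gamma targets, MHC class I and MHC class II, of which the last 3 belong to the response on which they were chosen, and overlapped it or lay at its edge for the other 18 lists.

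The 4 samples were all cycling populations by their transcripts. S-phase genes summed to 2274, 2187, 2338 and 2416 CPM and G2 and mitosis genes to 6166, 6897, 5664 and 5401 CPM, where the other 20 samples ran from 748 to 2314 and 1709.7 to 6413 CPM. HTO7/HTO10 had the highest mitotic sum of all 24 samples and HTO2/HTO9 the highest S-phase sum. None of 23 tested S-phase genes and none of 28 tested mitotic genes passed 2-fold among the 4. AURKA, a mitotic kinase, had 386, 514, 328 and 289 CPM and CCNB1, cyclin B1, 300.4, 422, 277 and 275 CPM, both highest in HTO7/HTO10. E2F1, which drives entry into S phase, had 21.8, 27.8, 34.9 and 37.7 CPM, higher at each step. Targets of p53 and arrest genes summed to 513, 444, 427 and 398 CPM. GADD45A, a stress-induced arrest protein, had 109, 96.6, 71.4 and 61.2 CPM, and none of 5 tested members passed 2-fold.

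Genes that were higher toward HTO2/HTO9 formed a smaller set from no single list. CCDC85B (ENSG00000175602, chromosome 11, 65890112 to 65891635), a coiled-coil protein, had 69.6, 70.2, 136 and 205 CPM, a ratio of 2.94 (2.52 to 3.43). LUCAT1, a long noncoding RNA linked to the NRF2 stress response, had 22.4, 24.3, 63.8 and 76.9 CPM. ITGB4, the integrin subunit of hemidesmosomes, had 29.4, 32.3, 70.6 and 82.1 CPM, where the other 20 samples ran from 26.98 to 67.01 CPM. In these 3 genes the 2 samples with HTO10 were close and the other pair higher. LHX1-DT, a noncoding transcript beside LHX1, had 10.1, 17.02, 29.8 and 37.4 CPM, and CALB2, calretinin, 26.1, 28.8, 47.04 and 64.3 CPM. TNFRSF6B, a decoy receptor for FAS ligand, had 82.5, 92.4, 138 and 181 CPM and HPCAL1, a neuronal calcium sensor relative, 88.6, 106, 171 and 174 CPM. C6orf141 completed the 10 largest ordered increases with 32.5, 42.7, 65.5 and 69.5 CPM. A UMI of ITGB4 was found in 32.1, 30.5, 51.5 and 59.02% of cells and in 10.2, 10.9, 18.3 and 18.03% after thinning.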

How the data were processed

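Counts of UMIs came from 1 deposited matrix of 36602 genes and 10 hashtags in 10660 barcodes. Per the file headers the authors made the counts with Cell Ranger 5.0.1. Per the submitters' processing notes the tool was Cell Ranger 2.1.1 and the build GRCh38, and the annotation version is not given in the sources used here. The matrix does not say which of 2 gene expression libraries a barcode came from. Each barcode belonged to at most 1 hashtag sample, and no doublet caller was run. Coordinates are from the GENCODE 29 annotation of GRCh38, matched by identifier for 34616 of 36602 genes, and promoter sequences are from RefSeq.

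The counts of a hashtag sample's cells were added up and scaled to the sample's total as CPM. Differences used log2(CPM + 10) of genes whose mean over the 4 samples was 20 CPM or more, and 2-fold was the line for a call. Intervals of 95% are exact Poisson for counts, conditional binomial for ratios and exact binomial for shares, and cover counting error only. Cells were thinned to 3000 UMIs, which left out 2, 1, 1 and 0 cells. Fold calls and intervals were tested on simulated data. The tools were Python 3.11.15, numpy 2.4.6, scipy 1.17.1, pandas 2.3.3 and matplotlib 3.10.9.

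The 4 samples and the 22 gene lists (452 genes) were chosen with earlier results of these data known. Named genes are FABP4, THBS1 and AREG, which were given as markers with the choice of the 4 samples, and the 12 widest ranges. Also named are the 10 largest increases and the 10 largest declines among genes that moved the same way at all 3 steps. Each list adds up to 3 members with the highest mean and up to 3 with the widest range. Other names, such as EGFR, ERRFI1, AXL, IFI6, IFITM3 and ATF4 (list members) and CDH1 were added after their values were seen. Some genes that the rule names are not reported here. Alternatives were other pseudocounts, filters, scalings, tag margins and cell sets.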

Additional observations from a re-analysis of the deposited data

Results flagged for a closer look

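Katushka, a far-red fluorescent reporter transgene listed among the features, lies outside the gene lists and the comparisons above. It had 2, 0, 0 and 5 UMIs in HTO1/HTO10, HTO7/HTO10, HTO4/HTO8 and HTO2/HTO9, so that 1 of the 4 samples passed the limit of 3 counts that a count of 0 allows. All 20 other samples passed it, with 4 to 33 UMIs and a median of 18, or 1.31 to 11.3 CPM. The lowest of them were HTO2/HTO10, HTO3/HTO10, HTO4/HTO10, HTO5/HTO10 and HTO6/HTO10, with 1.36, 2.35, 1.72, 1.79 and 1.31 CPM. Their 95% Poisson intervals overlapped those of all 4 samples. Of the other 20, 2 had a lower CPM than HTO2/HTO9 (1.53 CPM, 95% Poisson interval 0.497 to 3.57). No cell held more than 3 Katushka UMIs, and 20 of all 316 lay in KRT81-high cells. No difference between samples was tested, and the labels do not say which cells carried the reporter.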

How the results depend on the processing

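The counts of genes past 2-fold depended most on the treatment of low genes. With a pseudocount of 1 CPM, 138 genes differed over the 4 samples in place of 65, with 11, 40 and 14 at the 3 steps and 83 between the ends. With 50 CPM the numbers were 15, then 0, 2 and 2, and 10. With a mean of at least 100 CPM they were 15, then 0, 4 and 1, and 11. Without KRT81-high cells, 12 genes differed from HTO7/HTO10 to HTO4/HTO8 and 3 from HTO4/HTO8 to HTO2/HTO9. With every cell weighing the same, 2 differed from HTO1/HTO10 to HTO7/HTO10. Leaving out 1 sample gave 37 to 58 genes, with 40 without HTO1/HTO10 and 37 without HTO2/HTO9. Of 1320 values for 132 genes under the alternatives, 1235 moved by less than their interval, 83 moved by more and 2 reversed. Of 198 values for 22 lists, 167 moved by less than their interval, 30 by more and 1 reversed. LDHB went to -0.014 on the log2 scale without KRT81-high cells, which held nearly all of its UMIs. With cells of 2000 genes or more and a mitochondrial share up to 10%, PLAU went to -0.046 and the interferon gamma list to -0.020, and the cause was not tested. That filter left 125, 130, 87 and 115 cells. Without the 5 cells richest in a gene, an alternative chosen after seeing the data, the log2 ratio of HTO1/HTO10 to HTO4/HTO8 fell. It was 0.31 for CXCL10, 0.98 for CXCL8 and 1.10 for KRT81, in place of 1.41, 2.40 and 3.81. KRT81 then had 16.1, 5.01, 2.16 and 39.7 CPM in the 4 samples, so that its highest sample was HTO2/HTO9. With a tag margin of 2 the same ratio of KRT81 was 2.74, and with a margin of 5 that of CXCL10 was 0.60. No paired analysis was possible because each sample is 1 culture without a replicate number. Depth limits genes near 3 counts, about 1 CPM.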

Other observations

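The 3 genes named here were chosen after their values were seen, and they had nearly all of their few UMIs in the KRT81-high cells. CDKN2A, the gene of the cell cycle inhibitor p16, had 5, 2, 0 and 16 UMIs in the 4 samples, of which 0, 0, 0 and 2 lay in other cells. MTAP, its neighbour on chromosome 9 and an enzyme of methionine salvage, had 4, 8, 0 and 11 UMIs, and TRBC2, a T-cell receptor constant segment, 4, 2, 0 and 16. HTO4/HTO8, the sample without KRT81-high cells, had no UMI of any of these genes.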
